A study of Mus musculus with 15 samples.

Results

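The effect of NZM was examined in bone marrow-derived macrophages (BMDM) that had been given lipopolysaccharide (LPS), the endotoxin of Gram-negative bacteria and a standard stimulus of macrophages. The comparison was chosen by sample label. It sets the 3 LPS_NZM libraries against the 3 LPS libraries, which are 6 of the 15 libraries of the series. The BMDM came from bone marrow of wild type mice, and the LPS group was labelled with the treatment LPS alone. In the LPS_NZM group the model drug preceded NZM, which the labels do not explain. The 3 Control libraries, BMDM labelled with vehicle, are given beside both groups for some genes. Elsewhere a rise or fall is relative to LPS alone and leaves the place against Control unstated. Dose, time, sex and age are not given in the sources used here, and BMDM given NZM without LPS were not analysed here. Polyadenylated RNA was measured as TPM, a length-corrected share of each library's transcripts. Of 56979 identifiers, 13874 had 3 or more of the 6 libraries with a TPM of 1 or higher and were tested. The labels do not say whether the replicates are separate cultures or animals, so the p-values speak only to the scatter among the libraries at hand.

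Macrophages sense LPS through the receptor TLR4 with its partners CD14 and MD-2. The signal runs through NF-kB and MAP kinases to cytokine, chemokine and enzyme genes. Through interferon beta it also reaches a set of antiviral genes. A different state, called alternative activation, is known to be set by interleukin-4 and interleukin-13 through their receptor and STAT6. It is marked by the arginase gene Arg1, by lectin receptors such as Mrc1 and by transcription factors such as EGR2, IRF4 and PPAR gamma. DNA sites of these pathways include the interferon-stimulated response element (ISRE), the kappaB site and the palindromes bound by STAT dimers.

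Promoters of the genes with the largest falls and rises are shown to place these sites beside the genes that moved most. They are the 3 largest falls and the 3 largest rises for which a RefSeq window was at hand, and Nos2 and Arg1, which moved more, had none. Each line gives the 250 bases before the annotated start, 5′ to 3′ on the gene's strand, from RefSeq on build GRCm38.p6, an older build than that of the TPM. Capitals mark matches, on either strand, to an ISRE-like motif (GAAANNGAAA), a kappaB-like motif (GGGANNTTCC), a GAS motif of STAT dimers (TTCNNNGAA) or a STAT6-type motif (TTCNNNNGAA). Egr2 has 5 windows, and the one farthest downstream is shown.
Cxcl10, chr5:92348890-92349139, minus strand: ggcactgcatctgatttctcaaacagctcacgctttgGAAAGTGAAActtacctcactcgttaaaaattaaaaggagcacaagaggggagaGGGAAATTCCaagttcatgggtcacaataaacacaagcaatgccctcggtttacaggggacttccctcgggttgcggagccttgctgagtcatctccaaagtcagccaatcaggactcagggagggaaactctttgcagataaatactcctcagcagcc
Il12b, chr11:44399813-44400062, plus strand: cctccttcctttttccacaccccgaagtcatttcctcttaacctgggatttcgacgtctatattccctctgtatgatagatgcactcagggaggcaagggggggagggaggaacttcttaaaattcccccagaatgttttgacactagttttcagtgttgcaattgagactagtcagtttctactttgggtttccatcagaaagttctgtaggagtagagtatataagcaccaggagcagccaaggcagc
Saa3, chr7:46715677-46715926, minus strand: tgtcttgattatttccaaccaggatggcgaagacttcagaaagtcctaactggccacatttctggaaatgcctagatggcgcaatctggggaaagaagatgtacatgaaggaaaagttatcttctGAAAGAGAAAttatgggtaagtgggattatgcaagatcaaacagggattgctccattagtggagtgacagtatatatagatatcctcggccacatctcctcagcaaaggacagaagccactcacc
Retnla, chr16:48842359-48842608, plus strand: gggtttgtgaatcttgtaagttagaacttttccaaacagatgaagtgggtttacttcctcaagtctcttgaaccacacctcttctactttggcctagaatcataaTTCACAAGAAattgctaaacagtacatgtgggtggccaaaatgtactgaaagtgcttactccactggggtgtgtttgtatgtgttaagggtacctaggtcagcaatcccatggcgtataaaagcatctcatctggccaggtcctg
B3gnt7, chr1:86302971-86303220, plus strand: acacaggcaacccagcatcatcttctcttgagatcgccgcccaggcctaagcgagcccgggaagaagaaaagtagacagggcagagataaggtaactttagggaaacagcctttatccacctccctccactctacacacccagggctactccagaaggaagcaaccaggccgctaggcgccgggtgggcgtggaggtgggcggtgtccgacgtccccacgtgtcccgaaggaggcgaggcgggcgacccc
Egr2, chr10:67537680-67537929, plus strand: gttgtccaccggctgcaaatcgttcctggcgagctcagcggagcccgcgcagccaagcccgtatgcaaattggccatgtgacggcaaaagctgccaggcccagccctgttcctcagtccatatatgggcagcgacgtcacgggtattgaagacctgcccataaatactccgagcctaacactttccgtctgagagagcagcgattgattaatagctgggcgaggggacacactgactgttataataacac

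The falling gene Cxcl10 held an ISRE-like match 204 to 213 bases before its start and a kappaB-like match 150 to 159 bases before it. Saa3, which also fell, held an ISRE-like match 116 to 125 bases before its start. The rising gene Retnla held a STAT6-type match 136 to 145 bases before its start. None of these matches overlapped another. No match was found in the windows of Il12b, B3gnt7 and Egr2, which says only that these letters are not in them. Among all 32851 windows of the table, which are 300 bases long and include 50 bases after the start, 3.44% held the ISRE-like motif, 1.47% the kappaB-like motif, 8.3% the GAS motif and 6.95% the STAT6-type motif. A comparison of these shares between falling and rising genes is void, because a window was found for fewer than 80% of each set (71.8% of the genes fallen and 76.6% of those risen at least 4-fold on both scales described below, and 70.5% of all tested genes). A match describes the sequence and says nothing on binding.

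Most of the transcriptome differed between LPS_NZM and LPS. As deposited, 11070 of the 13874 tested genes (79.8%) passed limma at an adjusted p under 0.05, of which 8620 (62.1% of tested genes) rose and 2450 (17.7%) fell. The median log2 change, on the log2(TPM + 1) scale used throughout, was 0.42. TPM are shares of a whole, so the comparison was repeated after subtracting each library's median over the tested genes (centring), which lowered every log2 change by 0.455. On that scale 9371 genes (67.5%) passed, 4382 (31.6%) as risen and 4989 (36.0%) as fallen, so rises went from 77.9% to 46.8% of the calls. All 2450 falls stayed falls. Of the rises, 4382 stayed, 3341 lost their call and 897 turned into falls. In the text below "rose" and "fell" refer to the deposited scale, and counts on the centred scale are given beside them in the same order. Counts of list members are to be read against 62.1% risen and 17.7% fallen over all tested genes (centred, 31.6% and 36.0%). The cause of the shift was not tested.

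**Figure D1:**
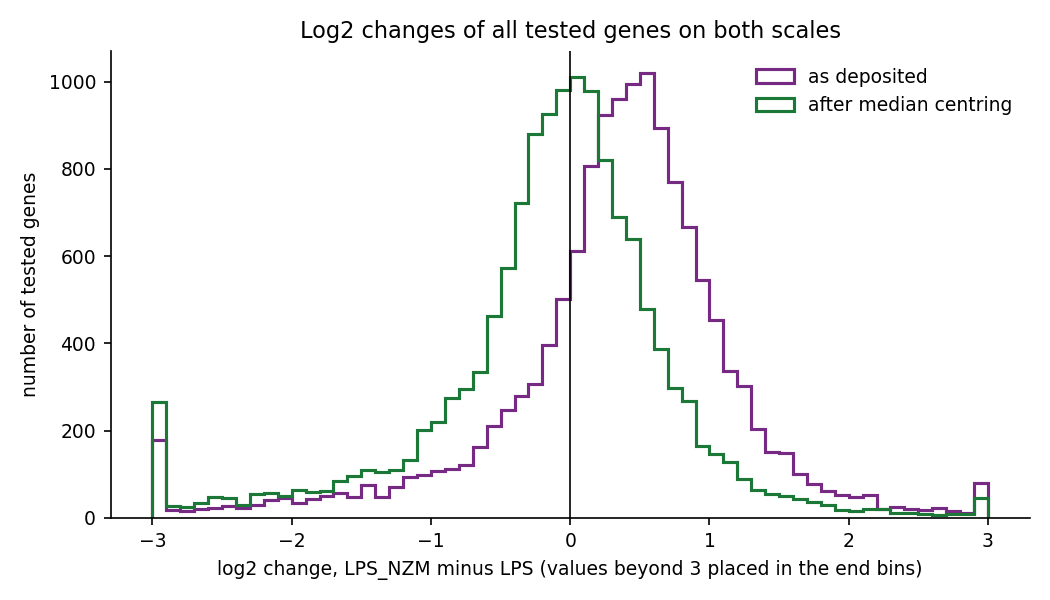
Number of tested genes (y axis) by log2 change of LPS_NZM minus LPS on the log2(TPM + 1) scale (x axis, values beyond 3 in the end bins), as deposited and after median centring. The distribution as deposited is the centred one moved by 0.455 to the right, with medians of 0.42 and -0.04.

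The balance of rises and falls turned with the size of the change. As deposited, 2187 genes rose and 1029 fell by a log2 change of at least 1, 310 rose and 418 fell by at least 2 and 20 rose and 71 fell by at least 4. Falls of these sizes stayed so after centring, which only deepens them, whereas 810, 154 and 14 of the rises kept that size. Falls were more frequent among abundant genes. They made up 12% of the 5187 genes with a mean of 1 to 10 TPM, 17.5% of the 6721 with 10 to 100 TPM, 35.1% of the 1588 with 100 to 1000 TPM and 35.6% of the 132 with 1000 TPM or more. The standard error of a log2 change had a median of 0.0768 over genes. All 3 libraries of a group lay on the same side of the other group, without overlap, for 81.8% of the tested genes. This held for every gene whose LPS and LPS_NZM libraries are given below, so overlap is stated only for Control.

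**Figure D2:**
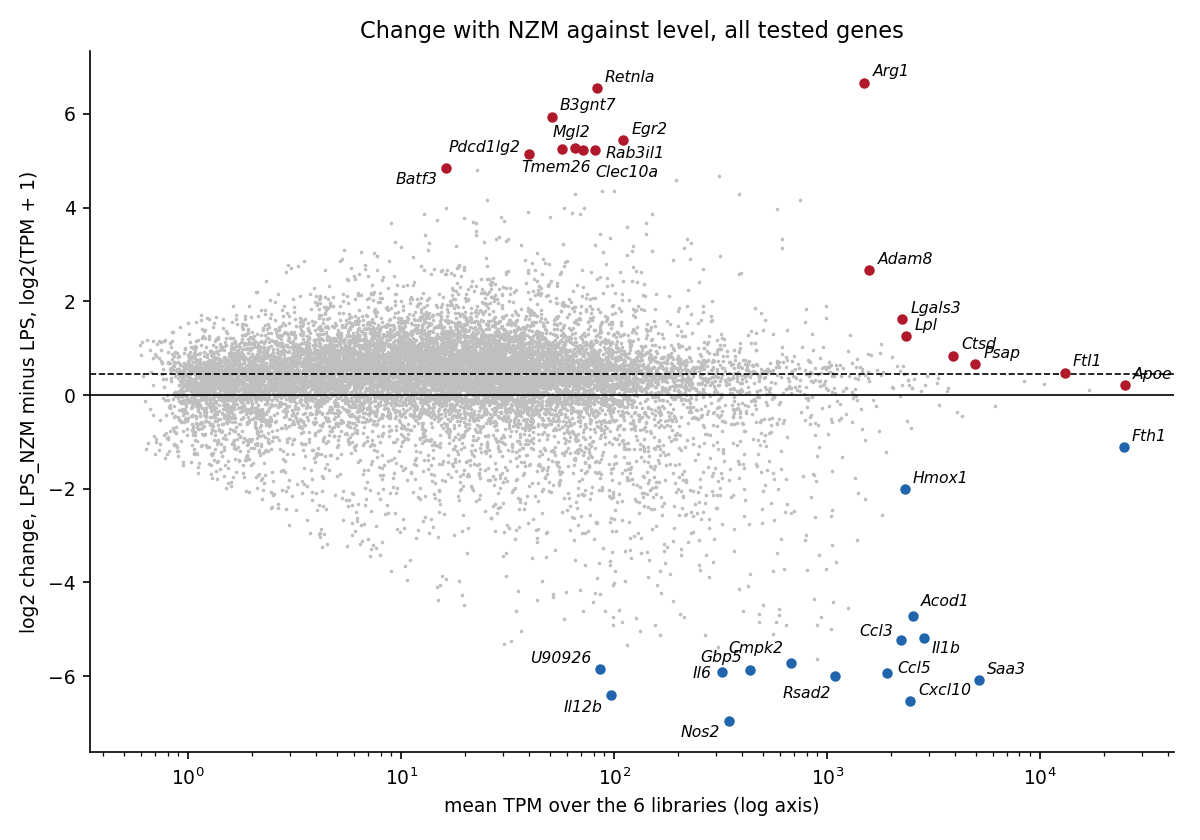
Log2 change of LPS_NZM minus LPS (y axis) against the mean TPM of the 6 libraries (x axis, log scale) for the 13874 tested genes, with the named genes red where they rose and blue where they fell and a dashed line at the shift of 0.455. The falls reach -6.95 (Nos2) and the rises 6.67 (Arg1).

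Sensors of LPS and their adaptors were divided. Of 25 tested members 10 rose and 12 fell (centred, 7 and 18). Cd14, the co-receptor that hands LPS to TLR4, read 2378, 2402 and 2407 TPM in LPS and 102, 101 and 100.2 TPM with NZM (log2 change -4.56, SE 0.02, adjusted p = 3.3e-12). With NZM it was below each Control library (216 to 239 TPM). Tlr4, the receptor itself, went from 20.4, 20.2 and 20.2 TPM to 41.1, 40.6 and 47.4 TPM (log2 change 1.05, adjusted p = 1.43e-06), and Control read 57.5 to 63.5 TPM. The NZM libraries lay between LPS and Control for Tlr4 and below both for Cd14. Tlr3, the sensor of double-stranded RNA, fell from between 47.8 and 51.8 TPM to between 5.34 and 6.05 TPM, and Irak3, a brake on the pathway, from between 298 and 304 TPM to between 16.2 and 17.98 TPM. The kinase genes Irak1 and Irak4 rose on both scales, from mean levels of 50.3 and 19.7 TPM to 95.8 and 35.3 TPM.

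NF-kB genes, many of which NF-kB itself induces, fell as a group. Of 20 tested, 1 rose and 17 fell (centred, 0 and 20), and the median log2 change was -1.13 against 0.42 over all tested genes. Tnfaip3, which encodes a deubiquitinase that shuts the pathway down, read 638, 644 and 647 TPM in LPS and 86.9, 87.7 and 87.7 TPM with NZM (log2 change -2.86, SE 0.02, adjusted p = 2.79e-11). Its Control libraries read 29.3 to 30.2 TPM, so the NZM libraries lay between Control and LPS. Nfkbiz, which encodes a nuclear IkB protein, went from 265, 269.6 and 271 TPM to 22.9, 22.4 and 22.2 TPM. Tnip1, a partner of TNFAIP3, fell from between 508 and 545 TPM to between 59.3 and 65.8 TPM. All 5 genes of DNA-binding subunits fell on both scales, Nfkb2 from 399.6 to 93.95 mean TPM (log2 change -2.08), Relb from 94.8 to 42.4 (-1.14), Rel from 36.1 to 18.9 (-0.91), Rela from 139 to 83.9 (-0.72) and Nfkb1 from 488 to 317 (-0.62).

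Cytokine genes fell by a wide range. Of 27 tested ligand genes 3 rose and 23 fell (3 and 24 after centring), with a median log2 change of -2.49. Il12b, the shared subunit of interleukin-12 and interleukin-23, read 195, 195 and 187 TPM in LPS and 1.14, 1.12 and 1.59 TPM with NZM (log2 change -6.41, SE 0.08, adjusted p = 2.35e-10), while Control read 0, 0.06 and 1.07 TPM. Il6, the gene of a fever and acute-phase cytokine, went from 666, 621 and 599.96 TPM to 8.40, 10.9 and 9.31 TPM. Csf3, the growth factor of neutrophils, went from 229, 225 and 219 TPM to 3.93, 4.67 and 5.16 TPM. Il1b, interleukin-1 beta, went from 5589, 5542 and 5437 TPM to 146, 152 and 152 TPM, with Control at 2.77, 0.94 and 33.9 TPM. Tnf, tumour necrosis factor, fell less, from 1419, 1425 and 1419.7 TPM to 174, 178 and 182 TPM (log2 change -2.99), with Control at 38.5 to 43.1 TPM. For Il12b, Il1b and Tnf the NZM libraries all lay between Control and LPS. The anti-inflammatory cytokine gene Il10 was lowered too, from 311, 318 and 306 TPM to 26.1, 28.99 and 35.5 TPM (log2 change -3.34, adjusted p = 1.64e-08). Ifnb1, interferon beta, was low in every group, at 2.69, 2.43 and 1.97 TPM in LPS and 0.15, 0 and 0.47 TPM with NZM. Its fall passed (log2 change -1.49, SE 0.18, adjusted p = 8.72e-05), but it met the filter only through its LPS libraries. That favours a fall, so the call is no support for one. The 3 that rose were Csf1, the macrophage growth factor (463 to 713 mean TPM), Tnfsf13 (2.88 to 8.25) and Tnfsf14 (1.83 to 3.82).

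Chemokine genes were less uniform. Of 26 tested, 9 rose and 15 fell (centred, 3 and 19), and the median log2 change was -1.72. Cxcl10, an attractant of activated T cells whose promoter is shown above, read 4947, 4774 and 4894 TPM in LPS and 44.9, 47.5 and 64.4 TPM with NZM (log2 change -6.53, SE 0.12, adjusted p = 1.2e-09). Ccl5, which attracts T cells and monocytes, went from 3818, 3760.4 and 3727 TPM to 58.9, 59.6 and 63.4 TPM, and Ccl3 from 4442, 4254 and 4328 TPM to 105, 114 and 126 TPM. Cxcl9, a relative of Cxcl10, fell from between 60.2 and 67.9 TPM to between 0.58 and 0.81 TPM and overlapped Control (0.33 to 1.00 TPM). The falls of Ccl5 and Ccl3 were 62.2-fold and 37.8-fold in mean TPM. The neutrophil attractants Cxcl1, Cxcl2 and Cxcl3 fell to 45.8 to 47.98, 201 to 206 and 104 to 121 TPM from 785 to 833, 1866 to 1935 and 1457 to 1525 TPM. Genes of monocyte attractants on CCR2 did not fall as deposited. Ccl2 read 908, 857 and 826 TPM in LPS and 968, 964 and 1023 TPM with NZM, a log2 change of 0.19 as deposited and -0.26 after centring, so its direction rests on the scale. Ccl7 rose on both scales, from between 396 and 442 TPM to between 1479 and 1599.7 TPM (log2 change 1.90), and Ccl12 read 67.7 and 75.6 mean TPM with an adjusted p of 0.16. Ccl24, an eosinophil attractant, rose from 1.23 to 28.4 mean TPM.

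The listed antiviral interferon-stimulated genes fell without exception, in a list written with earlier results of these data known. All 37 tested antiviral members fell on both scales, with a median log2 change of -2.54. Rsad2, which encodes the antiviral enzyme viperin, read 2126, 2157 and 2158 TPM in LPS and 30.8, 31.7 and 36.5 TPM with NZM (log2 change -5.99, SE 0.06, adjusted p = 5.66e-11). The NZM libraries were also below the 3 Control libraries, which read 44.3, 45.4 and 53.6 TPM. Cmpk2, a nucleotide kinase gene, went from 1320.2, 1319.7 and 1363 TPM to 23.2, 22.9 and 27.3 TPM, with Control at 37.9 to 45.5 TPM. Ifit1, which binds foreign RNA, went from 1087, 1092 and 1084 TPM to 29.2, 30.8 and 32.3 TPM, with Control at 55.2 to 58.7 TPM. In 28 of the 37 all NZM libraries were below every Control library, against 34.1% of all tested genes. In 3 they lay between Control and LPS, against 23.6% of all tested genes. The first count was the same without Control replicate 3, which stands apart from the other Control libraries for inflammatory genes, an alternative chosen after seeing the data.

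Guanylate-binding proteins and immunity-related GTPases, which attack vacuoles that hold pathogens, fell in 16 of 17 cases on both scales and rose in 0. Their median log2 change of -3.87 was the lowest of the 47 pathway lists. Gbp5 read 855, 858 and 856 TPM in LPS and 13.7, 11.3 and 16.3 TPM with NZM (log2 change -5.87, adjusted p = 1.16e-09), above Control at 2.61 to 7.77 TPM. Of the 17, 2 were above every Control library with NZM and 8 below every Control library, against 22.8% and 34.1% of all tested genes. Among the 8 were the GTPase genes Igtp (45.5 against 63.6 mean TPM in Control) and Irgm1 (77.4 against 130.1). Gbp3 and Gbp6 fell to 12.7 to 16 TPM and 5.22 to 7.64 TPM from 505 to 526 TPM and 170.4 to 218 TPM. Genes of this family, of the Ifit family and Tgtp1 and Tgtp2 have close copies, so the split of reads among them is uncertain. Irf7, an interferon-induced factor that amplifies the response, read 1272, 1290.3 and 1286 TPM in LPS and 519, 529.5 and 503 TPM with NZM. Irf1, a factor of the interferon and LPS responses, moved less, from 169, 176 and 174 TPM to 142, 143 and 133 TPM (log2 change -0.31, adjusted p = 8.32e-05). With NZM, Irf1 was above Control (63.7 to 69.2 TPM). Irf3, the factor upstream of interferon beta, rose as deposited from 49.4 to 71.9 mean TPM and did not pass after centring (adjusted p = 0.362). Interferon regulatory factor genes as a list had 3 of 8 risen and 5 fallen (centred, 1 and 5).

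Effector enzymes of LPS-activated macrophages were among the largest falls. Nos2, the inducible nitric oxide synthase, read 644, 699 and 712 TPM in LPS and 3.55, 4.28 and 6.14 TPM with NZM (log2 change -6.95, SE 0.14, adjusted p = 2.74e-09). Control read 0.12, 0.17 and 4.27 TPM, so its highest library overlapped the NZM range. Gch1 and Ass1, which supply the cofactor and the substrate of nitric oxide synthesis, fell from 180.2 to 23.2 and from 321 to 61.8 mean TPM. Acod1, which makes itaconate, went from 4819, 4849 and 4933 TPM to 184, 182 and 184 TPM (log2 change -4.72, adjusted p = 3.3e-12). Slc7a2, an arginine importer gene, was lowered only from 428 to 277 mean TPM and stood at 7.25 mean TPM in Control. Il4i1, an amino acid oxidase gene, read 112 mean TPM in LPS, 100.4 with NZM and 0.39 in Control, and its change did not pass as deposited (adjusted p = 0.164). The arginine, nitric oxide and polyamine list had 13 of 18 risen and 5 fallen (8 and 8 after centring). Tryptophan and histidine breakdown had 1 of 8 risen and 5 fallen (0 and 7), with Kynu, a kynureninase, at 9.29 against 1.29 mean TPM and Ido2 at 2.17 against 0.60. Ido2 met the filter only through its LPS libraries, so its call is no support for a fall. Cybb, the catalytic subunit of the NADPH oxidase, fell from 1161, 1208 and 1191 TPM to 204, 209.8 and 220.4 TPM, and its partners Rac2 and Ncf1 fell from 404 to 159.8 and from 364 to 202 mean TPM. That list had 3 of 8 risen and 5 fallen (centred, 0 and 7).

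Saa3, an acute-phase protein gene, held 10479, 10201 and 9834 TPM in LPS and 137, 151 and 159 TPM with NZM (log2 change -6.08, SE 0.05, adjusted p = 3.56e-11). Every NZM library remained above the Control libraries, which read 67.8, 61.8 and 122 TPM. U90926, an LPS-responsive transcript, fell to 2.40, 1.40 and 2.14 TPM from 178, 178 and 152 TPM. The formyl peptide receptor genes Fpr1 and Fpr2, which guide cells to bacterial peptides, fell to 32.2 to 36.2 TPM and 34.6 to 36.02 TPM from 1732 to 1766 TPM and 895 to 934 TPM. Ccrl2, a chemerin-binding receptor gene, fell from between 289.6 and 309 TPM to between 8.77 and 9.53 TPM. The list of chemoattractant receptors was even, with 10 of 21 risen and 10 fallen (8 and 11 after centring), and its risers included Ccr2, the receptor of Ccl2 and Ccl7, at 91 against 17.3 mean TPM.

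**Figure D3:**
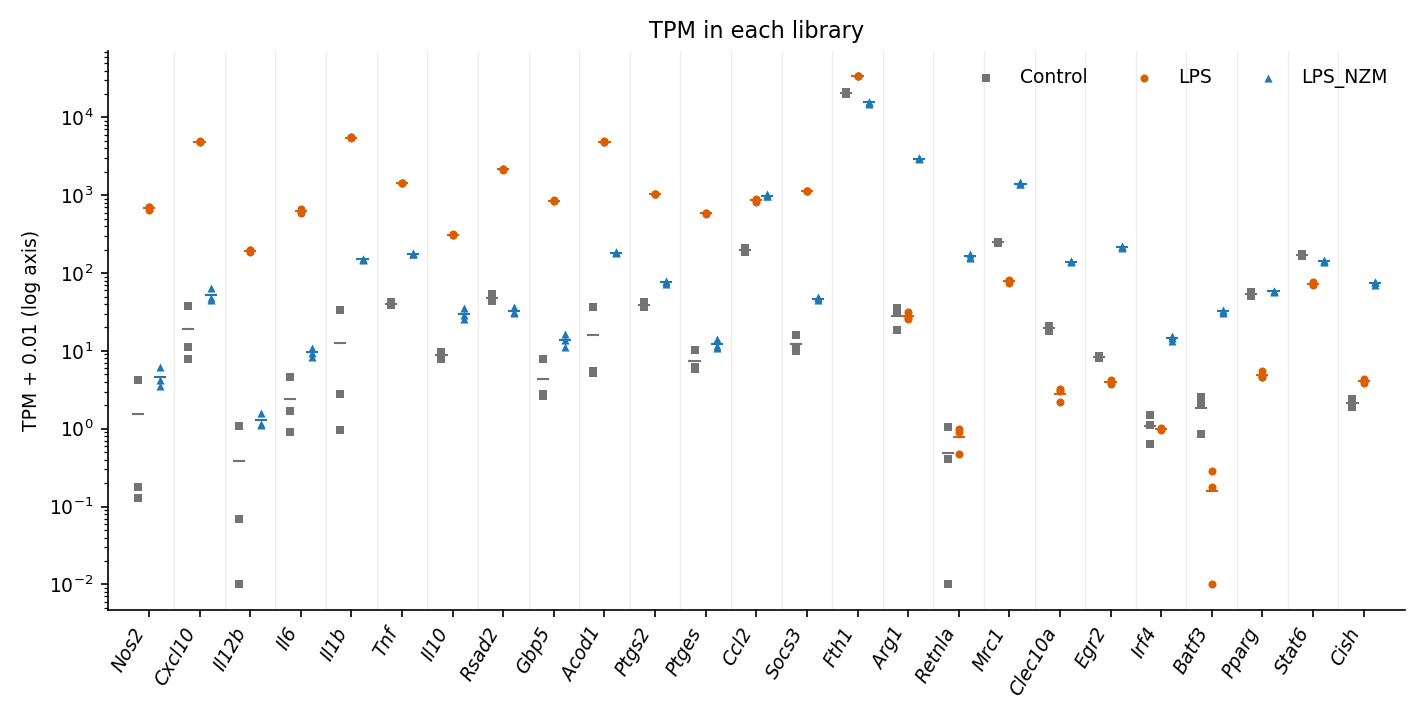
TPM plus 0.01 (y axis, log scale) of 25 genes (x axis) in each library, with Control as squares, LPS as circles and LPS_NZM as triangles, and a bar at each group's mean. For Nos2 the triangles lie below the circles (3.55 to 6.14 against 644 to 712 TPM) and for Arg1 above them (2914 to 2987 against 25.99 to 31.2 TPM).

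Genes of alternative activation moved the opposite way. Of 29 tested, 26 rose and 2 fell (centred, 23 and 3), and the median log2 change of 3.33 was the highest of the 47 lists. The list was written with earlier results of these data known, so its direction is no independent evidence. Arg1, which splits arginine into ornithine and urea, read 25.99, 31.2 and 27.4 TPM in LPS and 2976, 2987 and 2914 TPM with NZM (log2 change 6.67, SE 0.06, adjusted p = 3.79e-11). Control read 30.7, 18.6 and 35.8 TPM, so LPS and Control overlapped and NZM stood above both. Retnla, a secreted protein gene of type 2 immunity, went from 0.89, 0.99 and 0.47 TPM to 158, 176 and 160.4 TPM, with Control at 1.04, 0 and 0.40 TPM. Mrc1, the mannose receptor, read 78.4, 81 and 74.7 TPM in LPS, 1379.8, 1386 and 1468 TPM with NZM and 246 to 254 TPM in Control. Retnla and Mrc1 with NZM were also above both other groups. The galactose-type lectin genes Clec10a and Mgl2, close copies whose reads may be shared, reached 141, 143 and 137 TPM and 126, 131 and 130.3 TPM from 2.17 to 3.19 TPM and 1.96 to 2.70 TPM. Chil3, a chitinase-like protein gene, was abundant in LPS already and rose from 466, 478 and 487 TPM to 1502, 1472 and 1498 TPM. Clec7a, the beta-glucan receptor dectin-1, reached 1110.3, 1088 and 1081 TPM from 66.2 to 70.8 TPM, and Pdcd1lg2, the inhibitory ligand PD-L2, rose from 1.44, 1.23 and 1.05 TPM to 75.9, 80 and 78.4 TPM. B3gnt7, a glycosyltransferase gene and the third largest rise, went from 0.73, 0.63 and 0.61 TPM to 103, 99.3 and 100.4 TPM. Tmem26 and Rab3il1, further large rises, went from between 1.75 and 2.14 TPM to between 111 and 113 TPM and from between 3.03 and 3.66 TPM to between 155 and 164 TPM. In 25 of the 29 all NZM libraries were above every Control library, against 22.8% of all tested genes. The chemokine gene Ccl22 fell (130.3 to 16.2 mean TPM), and Ccl17 read 2.72 and 2.24 mean TPM without a call (adjusted p = 0.524).

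Genes of the interleukin-4 receptor pathway were read beside them. Il4ra, the receptor chain, was lower with NZM than in LPS, at 145, 147 and 146 against 206, 212 and 217 TPM (log2 change -0.53, adjusted p = 7.02e-07). It stayed above Control (101 to 107 TPM). Stat6, its transcription factor, rose from 71.8, 70.6 and 76.5 TPM to 147, 138 and 143 TPM, with Control at 166 to 174 TPM. Cish, a cytokine-induced inhibitor gene, rose from 3.87, 4.30 and 4.05 TPM to 77.8, 70.8 and 76.1 TPM (log2 change 3.90, adjusted p = 5.88e-10). Socs3, which restrains interleukin-6 signalling, moved against it, from 1136, 1132 and 1148 TPM to 44.95, 47.6 and 48.8 TPM. Its relative Socs1 read 32.7 mean TPM in LPS and 46.2 with NZM, a rise as deposited that did not pass after centring (adjusted p = 0.675). The JAK, STAT and SOCS list had 8 of 21 risen and 10 fallen (centred, 5 and 13).

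Transcription factor genes moved in both directions. Egr2 read 4.03, 4.23 and 3.77 TPM in LPS and 210.1, 223 and 215 TPM with NZM (log2 change 5.44, SE 0.05, adjusted p = 4.71e-11), with Control at 8.19 to 8.65 TPM. Irf4 rose from 1.00, 0.97 and 0.94 TPM to 15.4, 14.5 and 13.6 TPM, with Control at 0.63 to 1.48 TPM. Batf3, a factor of the AP-1 group, read 0, 0.28 and 0.17 TPM in LPS and 30.3, 32.9 and 33.3 TPM with NZM. For Egr2, Irf4 and Batf3 the NZM libraries stood above both other groups. Pparg, a nuclear receptor of lipid metabolism, rose from 4.56, 5.51 and 4.68 TPM to 56.7, 59.4 and 59.1 TPM, with Control at 50.1 to 56.8 TPM. Its partner gene Rxra rose from 37.03 to 205 mean TPM, with Control at 208. Myc, a driver of cell growth, rose from 43.5, 45.2 and 42.1 TPM to 139.9, 141 and 143 TPM, above Control (89.9 to 94.7 TPM). Cebpb, a factor of the LPS response, was variable, at 417, 344 and 197 TPM in LPS and 69.4, 113 and 109 TPM with NZM, and its fall passed with a large error (log2 change -1.67, SE 0.28, adjusted p = 0.00074). Batf2 and Cebpd, further factors of activated macrophages, fell from between 74.99 and 77.2 TPM to between 8.74 and 10.5 TPM and from between 139.5 and 147 TPM to between 20.3 and 21.03 TPM. Spi1, the lineage factor PU.1, fell from between 689.8 and 709 TPM to between 455 and 470.3 TPM. The AP-1, MAF, KLF and EGR list had 12 of 22 risen and 8 fallen (9 and 10 after centring), and the lineage factors 12 of 24 risen and 11 fallen (8 and 14). MAP kinase phosphatase and Sprouty genes, feedback brakes on MAP kinases, had 7 of 17 risen and 6 fallen (6 and 9). Dusp16 and Dusp2 fell from 135 to 10.1 and from 177 to 14.4 mean TPM, and Dusp4 rose from 15.4 to 82.1.

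Several genes were near 0 in only 1 of the 2 groups. At least 5 TPM in all 3 libraries with NZM and under 0.5 TPM in all 3 without it was met by 7 genes, which were Batf3, Msx3, Ctnnd2, Rnase2a, Il31ra, Scn3a and the predicted gene Gm19951. Msx3, a homeobox gene, read 0.12, 0.14 and 0.13 TPM in LPS and 32.8, 29.95 and 30.9 TPM with NZM. Rnase2a, a ribonuclease gene of a family of close copies, was listed at 0 in all 3 LPS libraries and read 5.02, 6.07 and 6.59 TPM with NZM. The reverse pattern was met by 12 genes, among them Il1f6 (interleukin-36 alpha), Cxcl11 and Has1 (a hyaluronan synthase). Il1f6 read 8.17, 8.04 and 9.14 TPM in LPS and was listed at 0 in all 3 NZM libraries, and Cxcl11, a relative of Cxcl10, read 9.28, 8.52 and 8.79 TPM against 0, 0.08 and 0.19 TPM. TPM give no counts, so the depth behind a value listed at 0 is unknown.

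The prostaglandin and leukotriene list had 13 of 21 tested genes risen and 5 fallen (9 and 8 after centring), near the shares of 62.1% and 17.7% over all tested genes, and its largest changes went both ways. Ptgs2, the inducible cyclooxygenase, read 1039, 1040.1 and 1049 TPM in LPS and 72.7, 77.5 and 79.6 TPM with NZM (log2 change -3.75, adjusted p = 4.88e-11). Ptges, the inducible prostaglandin E synthase that works with it, went from 574, 584 and 596 TPM to 11.6, 10.9 and 14.3 TPM. Ptgs1, the constitutive cyclooxygenase, rose from 18.5, 17.04 and 15.3 TPM to 215, 213 and 214 TPM (log2 change 3.59, adjusted p = 9.98e-10), above Control at 62.5 to 65.5 TPM. Other risers were the thromboxane synthase gene Tbxas1 (78.4 to 419.7 mean TPM) and the leukotriene B4 receptor gene Ltb4r1 (6.40 to 66.8).

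As deposited, antigen presentation parted by class. Of 22 genes of class I presentation and the immunoproteasome 3 rose and 19 fell (1 and 20 after centring). Tap1, the peptide transporter, went from 435, 434 and 461 TPM to 89.4, 85.04 and 93.8 TPM. Nlrc5, the class I transactivator, fell from between 114 and 118 TPM to between 12.2 and 13.1 TPM. Class I heavy chain genes are close copies, so separate values such as those of H2-T22 (587 to 132 mean TPM) are uncertain. All 11 tested class II genes rose, but after centring 5 rose and 3 fell. H2-DMa, which helps to load class II molecules, read 15.7, 16.98 and 12.96 TPM in LPS and 100.2, 91.7 and 96 TPM with NZM (log2 change 2.59, adjusted p = 4.88e-08), above Control at 29.2 to 33 TPM. Ifi30, a thiol reductase of antigen processing, rose from 105 to 352 mean TPM and H2-DMb2 from 1.32 to 9.37. The class II chain gene H2-Aa read 194 mean TPM in LPS and 252 with NZM, a rise as deposited that did not pass after centring (adjusted p = 0.101). The chain genes H2-Ab1 and H2-Eb1 moved little, from 205.7 to 230.4 and from 142.3 to 175.2 mean TPM.

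Of 18 tested costimulatory and inhibitory ligand genes 7 rose and 11 fell (6 and 11 after centring). Cd40, a receptor for T cell help, fell from 489.7 to 67.8 mean TPM, and Cd274, which encodes PD-L1, from 813 to 214, while Pdcd1lg2 rose as given above. Slamf7, a receptor of immune cells, fell from between 1152 and 1178 TPM to between 84.3 and 90.8 TPM and Tnfsf15 from 38.5 to 0.77 mean TPM. Inflammasome and pyroptosis genes rose in 7 of 21 cases and fell in 14, on both scales. Nlrp3, the inflammasome sensor, read 406, 394 and 421 TPM in LPS and 50.7, 50.5 and 55.6 TPM with NZM. Il18, a cytokine matured by the inflammasome, and Casp4, the intracellular LPS sensor, fell to 7.61 to 11.02 TPM and 17.95 to 21.3 TPM from 96.1 to 97.5 TPM and 202 to 209 TPM. Il18 was then below its Control range (20.4 to 22.3 TPM). P2rx7, the ATP-gated channel upstream of NLRP3, was among the risers (5.23 to 29.4 mean TPM). Survival and death genes had 8 of 22 risen and 11 fallen (5 and 15), with Bcl2 and Bcl2l1, which oppose apoptosis, rising from 1.47 to 7.30 and from 48.4 to 118 mean TPM. Cflar, an inhibitor of caspase 8, fell from 906 to 183 mean TPM, as did the close copies Bcl2a1a and Bcl2a1d, whose reads may be shared (174 to 22.3 and 307 to 21.8).

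Receptors for uptake were mixed. Of 28 scavenger, lectin and efferocytosis receptor genes 15 rose and 11 fell (centred, 10 and 15). Clec4e (mincle, a receptor for mycobacterial glycolipids) read 2065, 2013 and 1972 TPM in LPS and 59.9, 60.8 and 66.5 TPM with NZM (log2 change -4.99, adjusted p = 3.1e-11). Cd36 and Trem2, lipid receptors, rose from between 735 and 759 TPM to between 1759 and 1853 TPM and from 264 to 664 mean TPM. Control read 1767 and 738 mean TPM for these. Of 7 Fc receptor genes 2 rose and 5 fell on both scales. Fcgr3, which is activated by IgG complexes, rose from 396, 406 and 385 TPM to 1195, 1180.2 and 1144 TPM, above Control at 547 to 606 TPM. Fcgrt, the neonatal Fc receptor, rose from between 44.7 and 45.4 TPM to between 137 and 143 TPM, and Trim21, a cytosolic antibody receptor, fell from 112 to 17.4 mean TPM. Complement genes had 8 of 16 risen and 7 fallen (5 and 8), with C1qa, a subunit of the first component, rising from between 834 and 877 TPM to between 1621 and 1653 TPM. Cfb and C3, factors of the alternative path, fell from 775 to 30.6 and from 553 to 209 mean TPM, and Cd55, a complement regulator, from 14.02 to 5.57.

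Of 32 tested cytokine receptor genes 15 rose and 13 fell (centred, 15 and 17). Tnfrsf1b, a receptor of tumour necrosis factor, fell from 2408, 2468 and 2548 TPM to 286, 295 and 286 TPM. Il15ra, which presents interleukin-15, fell from between 60.7 and 63.8 TPM to between 6.55 and 8.35 TPM. Il6st (gp130), the signalling chain for interleukin-6, rose from 41.2, 39.1 and 39.99 TPM to 218, 213 and 218 TPM (log2 change 2.40, adjusted p = 2.79e-10), above Control at 77.4 to 84.1 TPM. Csf1r, the receptor for the macrophage growth factor, rose from 616, 610.4 and 648 TPM to 1288, 1287 and 1262 TPM, with Control at 1033 to 1137 TPM.

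Glycolysis genes leaned to the falls and mitochondrial fuel genes to the rises. Of 26 tested genes of glycolysis and the pentose phosphate path 9 rose and 16 fell (4 and 19 after centring). Pfkfb3, which raises glycolytic flux, read 1711, 1734 and 1782 TPM in LPS and 53.3, 54.9 and 62.3 TPM with NZM (log2 change -4.92, adjusted p = 1.01e-10), while its relative Pfkfb4 rose from 14.9, 15.7 and 15.1 TPM to 75.2, 70.8 and 72.5 TPM. Slc2a6, a sugar transporter gene, fell from between 369.8 and 389 TPM to between 33.7 and 36.6 TPM. Of 32 genes of the TCA cycle, pyruvate entry and itaconate 27 rose and 3 fell, Acod1 among the falls (15 and 7 after centring). Idh2, a mitochondrial isocitrate dehydrogenase gene, rose from between 34.1 and 35.2 TPM to between 99.1 and 102 TPM. Fh1, fumarase, rose from between 18.7 and 22.1 TPM to between 42.7 and 43.4 TPM. Fatty acid oxidation and storage had 19 of 25 risen and 3 fallen (13 and 7). Acadm, which oxidises medium-chain fatty acids, rose from between 20.7 and 22.8 TPM to between 85.2 and 87.8 TPM, and Dgat2, which makes triglycerides, fell from between 84.4 and 87.5 TPM to between 9.83 and 11.01 TPM. Hadh, an enzyme of the same oxidation path, rose from 12.4 to 38.96 mean TPM.

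Respiratory chain genes rose as deposited and divided after centring. Of 36 nuclear-encoded members 31 rose and 1 fell, but after centring 10 rose and 9 fell. The rises past the shift included Ndufb10, Ndufs7 and Ndufa8, subunits of complex I, at 85.3, 79.95 and 122 against 38.4, 37.3 and 64.5 mean TPM. All 13 mitochondrially encoded genes rose as deposited, whereas after centring 1 rose, mt-Nd2, and 6 fell. Mitochondrially encoded genes held 2.92% to 3.09% of all TPM in the LPS libraries and 3.71% to 3.82% with NZM.

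Redox and iron genes included some of the most abundant transcripts. Of 32 antioxidant and glutathione genes 13 rose and 17 fell (7 and 25 after centring). Hmox1, heme oxygenase 1, read 3718, 3704 and 3686 TPM in LPS and 903, 920.3 and 923 TPM with NZM (log2 change -2.01, adjusted p = 4.6e-11), below Control at 2632 to 2642 TPM. Slc7a11, a subunit of the cystine importer, went from 397, 395 and 390.1 TPM to 14.4, 12.97 and 15.99 TPM. Sod2, the mitochondrial superoxide dismutase, went from 537, 537 and 537 TPM to 43.2, 45.4 and 44.5 TPM. Gsr, glutathione reductase, fell from 418 to 85.4 mean TPM. Iron handling had 10 of 20 genes risen and 9 fallen (7 and 11). Fth1, the ferritin heavy chain, fell from 33916, 33618 and 33661 TPM to 15859, 15831 and 15078 TPM (log2 change -1.11, adjusted p = 2.74e-09), below Control at 20189.7 to 21259 TPM. Ftl1, the light chain, rose from 11258, 10791 and 10638 TPM to 14961, 15100.2 and 15468 TPM, but its change after centring was 0.02 and did not pass (adjusted p = 0.506). As deposited the 2 ferritin chains thus moved in opposite directions. Tfrc, the importer of transferrin-bound iron, rose from 77.03, 76.1 and 76.7 TPM to 359, 358 and 379 TPM, above Control at 178 to 190.4 TPM. Slc40a1, the iron exporter ferroportin, rose from 22.9, 22.5 and 22.9 TPM to 71.6, 71.6 and 73.8 TPM, with Control at 185 to 199 TPM. Lcn2, which binds bacterial siderophores, Cp, the ferroxidase ceruloplasmin, and Steap4, a metalloreductase, fell to 149.98 to 168, 22.2 to 23.7 and 0.66 to 0.79 TPM from 1667 to 1696, 239.5 to 248 and 27.8 to 30.4 TPM.

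Metallothionein and zinc transporter genes rose in 9 of 17 cases and fell in 4, or 5 and 9 after centring. Mt2, a metal-binding protein gene, went from 159.9, 169 and 173 TPM to 24.6, 31.6 and 23.04 TPM. Its neighbour Mt1 went from 94.04, 101 and 92.2 TPM to 74, 76.1 and 69.9 TPM. With NZM, Mt2 overlapped Control (16.4 to 27.8 TPM) and Mt1 was above it (58.4 to 68.8 TPM). The zinc importer genes Slc39a14 and Slc39a6 went apart, the first falling from 270.2 to 75.9 mean TPM and the second rising from 32.6 to 115.

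Of 29 lysosomal hydrolase and V-ATPase genes 25 rose and 3 fell (centred, 13 and 10). Atp6v0a1, a subunit of the proton pump, read 37.8, 35.6 and 36.8 TPM in LPS and 734, 738 and 735 TPM with NZM (log2 change 4.29, SE 0.03, adjusted p = 1.88e-11), above Control at 169.8 to 185 TPM. Atp6v0d2, another subunit, rose less, from 24.6 to 87.99 mean TPM. Ctsc, cathepsin C, fell from between 2451 and 2479 TPM to between 525 and 533 TPM. Cholesterol synthesis and uptake had 14 of 23 genes risen and 7 fallen (7 and 12), against 62.1% and 17.7% of all tested genes as deposited. Enzymes of the late steps of synthesis moved both ways, with Dhcr7 and Ebp rising from 10.5 to 38.8 and from 24.8 to 47.4 mean TPM. Control read 36.8 and 50.25 mean TPM for these. Hsd17b7 and Sc5d fell from 46.4 to 35.5 and from 39.5 to 30.6, and Cyp51 read 46.4 and 45.5 mean TPM without a call as deposited (adjusted p = 0.562). Cholesterol efflux and LXR target genes had 11 of 16 risen and 4 fallen (5 and 6), against the same shares of all tested genes. Npc1, a lysosomal cholesterol exporter, rose from 45.8 to 157 mean TPM. The efflux transporters went apart, Abca1 from 64.6, 65.9 and 64.5 TPM to 15.9, 17.4 and 17.8 TPM and Abcg1 from 3.96, 4.30 and 3.97 TPM to 31.8, 33.6 and 31.9 TPM. With NZM, Abca1 was below its Control range (38.7 to 43.1 TPM) and Abcg1 above it (6.88 to 8.38 TPM).

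The listed genes of ribosome assembly rose without exception. All 22 passed on both scales, with medians of 1.28 and 0.82, and Dkc1, which modifies ribosomal RNA, rose from 16.4, 14.3 and 13.3 TPM to 53.6, 55.5 and 51.5 TPM. Polr1b, a subunit of RNA polymerase I, and Nop16, a nucleolar protein, rose from 7.62 to 27.98 and from 56.8 to 189 mean TPM. In 19 of the 22 the NZM libraries were above every Control library, against 22.8% of all tested genes. DNA replication genes rose in 22 of 24 cases and fell in 0 (20 and 2 after centring). Mcm2, a subunit of the replicative helicase, went from 10.9, 11.9 and 11.96 TPM to 42.3, 42.03 and 43.2 TPM, with Control at 71.2 to 79.6 TPM. Cdt1, which loads the helicase, and Pold1, a DNA polymerase, rose from 15.5 to 48.8 and from 5.38 to 19.2 mean TPM. In 23 of the 24 the NZM libraries lay between Control and LPS, against 23.6% of all tested genes. Genes of mitosis did not rise beyond the shift, since 14 of 22 rose and 0 fell as deposited and after centring 0 rose and 9 fell. Aurkb, Ccna2 and Cdc20, which drive cell division, passed as deposited (log2 changes 0.62, 0.59 and 0.53) and not after centring (adjusted p = 0.0623, 0.0629 and 0.298).

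Genes of protein folding stress moved to both sides of the shift. Of 16 genes of the unfolded protein response 13 rose and 1 fell (6 and 6 after centring). Pdia4, an oxidoreductase of the endoplasmic reticulum, rose from 111, 106 and 112 TPM to 673, 669 and 643 TPM (log2 change 2.58, adjusted p = 1.73e-10), while Hspa5, the main chaperone there, read 856 and 837 mean TPM without a call as deposited (adjusted p = 0.236). Sdf2l1 and Atf6, of the same compartment, rose from 45.8 to 101 and from 27.1 to 50.1 mean TPM. Heat shock genes had 11 of 16 risen and 4 fallen (6 and 7), against 62.1% and 17.7% of all tested genes as deposited. Hsph1 rose from 51.7 to 141 mean TPM. The near-identical Hspa1a and Hspa1b fell from 40.4 to 10.7 and from 53.8 to 19.3 mean TPM. Integrated stress response and amino acid transport genes had 15 of 21 risen and 4 fallen (7 and 9), against the same shares of all tested genes. Slc1a5, a glutamine transporter, rose from 30.6 to 84.6 mean TPM. Nupr1, a stress factor, fell from between 225 and 236 TPM to between 74.3 and 78.9 TPM.

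Growth factor and protease genes also split. Of 20 tested growth factor genes 13 rose and 5 fell (11 and 6 after centring). As deposited this was near the 62.1% and 17.7% of all tested genes. Igf1, insulin-like growth factor 1, rose from 119, 117 and 116 TPM to 389.96, 397 and 419 TPM, whereas Vegfa, which drives vessel growth, fell from 154 to 68.8 mean TPM. Pdgfa, a mitogen of mesenchymal cells, and Hbegf, a ligand of the EGF receptor, rose from 13.8 to 107 and from 21.5 to 69.3 mean TPM. Of 19 protease genes 7 rose and 11 fell (5 and 12). Plau, urokinase, rose from 68.6, 71.2 and 70.6 TPM to 466, 451 and 448 TPM, which overlapped Control (455 to 479 TPM). The collagenase gene Mmp13 fell from between 1483 and 1526 TPM to between 238 and 258 TPM. Serpinb2, an inhibitor of urokinase, fell from between 731 and 766 TPM to between 104 and 120.4 TPM. Of 22 integrin and adhesion genes 13 rose and 6 fell (centred, 5 and 14). Over all tested genes the shares were 62.1% and 17.7% (centred, 31.6% and 36.0%). The largest changes of the list, given here, were falls, although more members rose as deposited. Vcam1 and Icam1, ligands of leukocyte integrins, fell from 210.0 to 42.8 and from 541 to 152 mean TPM. Itga4, an integrin chain that binds VCAM1, fell from 54.3 to 12.2. Osteoclast genes had 5 of 11 risen and 3 fallen (2 and 6), with Ocstamp, a fusion protein gene, rising from 8.24 to 14.2 and Src falling from 93.3 to 35.9 mean TPM.

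**Figure D4:**
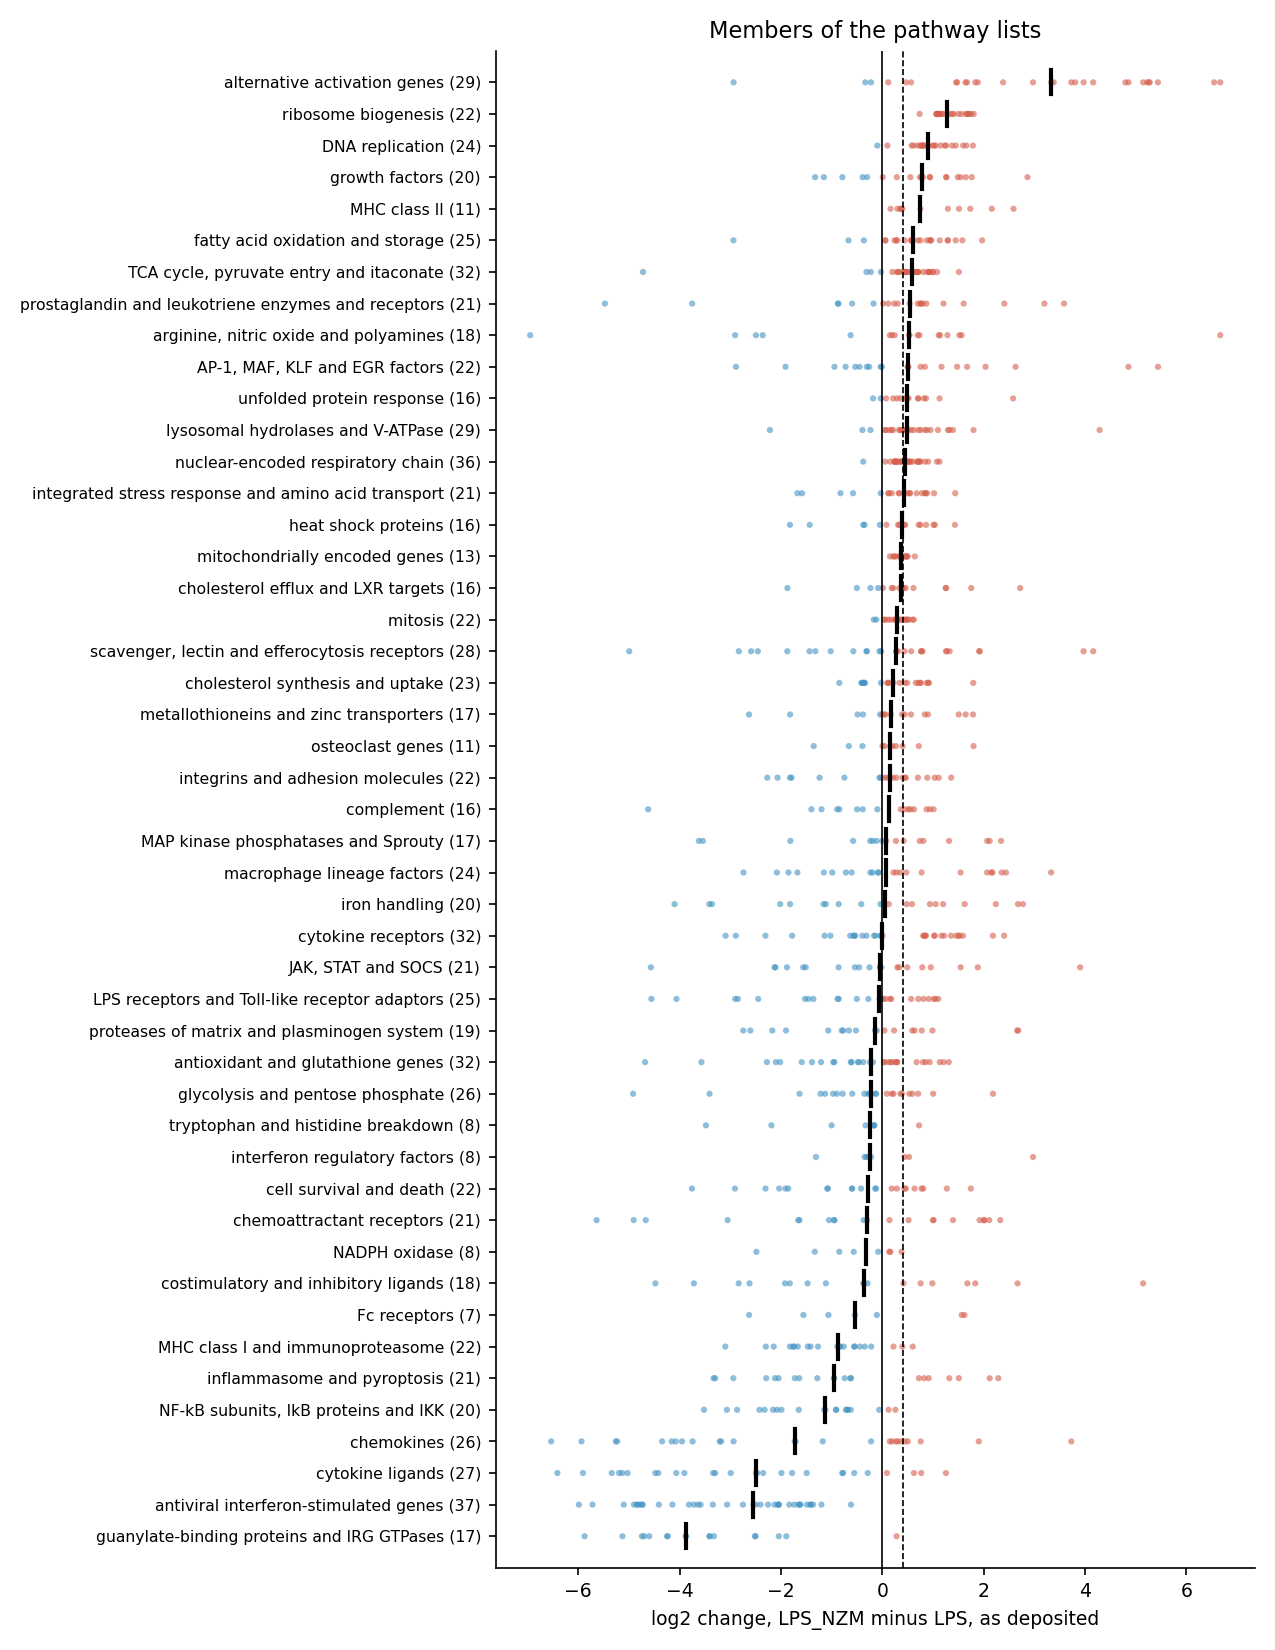
Log2 change of LPS_NZM minus LPS (x axis, as deposited) for every tested member (dots) of the 47 pathway lists (rows), with a black bar at each list's median and a dashed line at the median of all tested genes, 0.42. The list medians run from -3.87 for guanylate-binding proteins and IRG GTPases to 3.33 for alternative activation genes.

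A few abundant genes carried a large part of the losses. The gains and the losses of mean TPM each summed to 264300 TPM. The 8 largest losses made up 20.3% of all losses and the 8 largest gains 8.29% of all gains, and for the largest 100 the shares were 56.6% and 29.9%. Fth1, Saa3, Il1b, Cxcl10, Acod1, Ccl3, Ccl5 and Hmox1 were the 8 losses, and Ftl1, Apoe, Arg1, Adam8, Lgals3, Psap, Ctsd and Lpl the 8 gains. Apoe, a lipid carrier, read 23062, 22997 and 23155 TPM in LPS and 26908, 27367 and 26178 TPM with NZM, a rise as deposited and a fall after centring (log2 changes 0.22 and -0.24). Lgals3, the lectin galectin-3, rose on both scales from 1146, 1079.7 and 1087 TPM to 3384, 3345 and 3416 TPM. Adam8, a membrane protease, rose from 419.9, 424 and 445 TPM to 2741, 2724 and 2695 TPM.

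**Figure D5:**
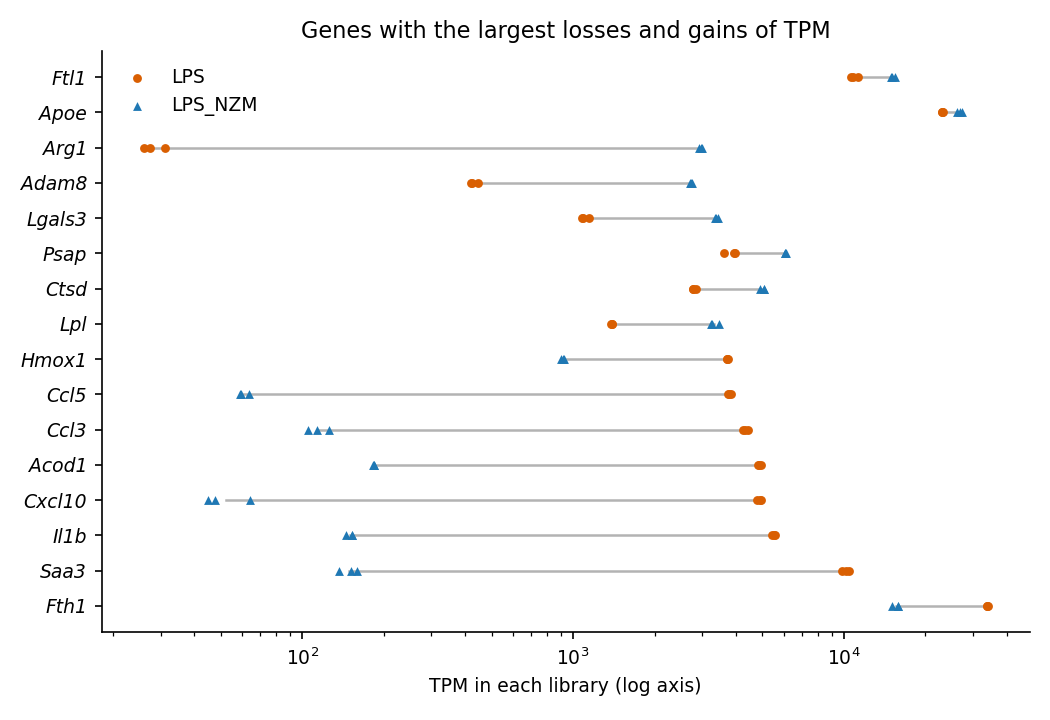
TPM in each library (x axis, log scale) of the genes with the 8 largest losses and the 8 largest gains of mean TPM (rows), with LPS as circles, LPS_NZM as triangles and a line that joins the group means of LPS and LPS_NZM. The 2 groups do not overlap for any of the 16 genes, and Fth1 has the largest loss.

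The labelled cell type was checked against its markers. All 14 macrophage markers were tested, and their summed level was 27420 to 27630 TPM in LPS and 29620 to 30130 TPM with NZM, a rise smaller than the shift. As deposited 7 rose and 5 fell, and after centring 6 rose and 8 fell. Adgre1, which encodes F4/80, read 1097, 1088 and 1107 TPM in LPS and 938, 930.1 and 944 TPM with NZM, with Control at 687 to 723 TPM. Markers of other cells moved as well. The 16 fibroblast and stromal markers summed to 4722 to 5003 TPM and 5266 to 5379 TPM, with 7 risen and 4 fallen as deposited and 0 and 14 after centring. The 14 neutrophil markers summed to 4243 to 4471 TPM and 2457 to 2882 TPM, with 7 risen and 5 fallen (4 and 6). Among them Lcn2, with Control at 135 mean TPM, fell from 1681 mean TPM in LPS to 157 with NZM. Mpo and Elane, granule enzyme genes of the lineage, rose from 45.2 to 127 and from 39.1 to 75.5 mean TPM. The mast cell and basophil markers summed to 273 to 304 TPM and 166 to 276 TPM, which overlap, and of 11 tested 0 rose and 3 fell (0 and 8). Hdc, the histamine-forming enzyme, went from 73.7, 74.6 and 79.8 TPM to 5.15, 6.48 and 6.14 TPM, while Cpa3, a mast cell protease and the most abundant of them, read 88.1 and 90.4 mean TPM without a call as deposited (adjusted p = 0.973). Dendritic cell markers, of which 2 of 8 were tested, summed to 25.8 to 33.9 TPM and 7.60 to 9.35 TPM. Of these, Ccr7 fell from 21.7 mean TPM in LPS to 1.74 with NZM, with Control at 1.46. T and NK cell markers summed to 9.87 to 16.1 TPM and 21.1 to 33.9 TPM. Endothelial markers summed to 43.03 to 46.2 TPM and 84.2 to 87.8 TPM, of which Pecam1 made up 55.9 mean TPM with NZM. B cell markers summed to 64.7 to 98.2 TPM and 86.7 to 88.6 TPM, and erythroid and megakaryocyte markers to 919 to 1024 TPM and 1128 to 1314 TPM. In bulk libraries fewer cells of a type and less RNA per cell cannot be told apart, and the part of these cells in the results above was not tested.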

How the data were processed

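Gene expression of 15 libraries was deposited by the authors as 1 table of TPM, of which the 6 LPS and LPS_NZM columns were tested and the 3 BMDM Control columns read beside them. Per the labels' protocols, RNA was extracted with TRIzol, and polyadenylated RNA was made into stranded libraries and read in pairs. GRCm39, RSEM, StringTie, HISAT2 and fastp appear, without versions or roles, per the submitters' processing notes. No counts were used, so the depth of each library is unknown.

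Columns were matched to samples by name. Genes were kept where 3 or more of the 6 libraries had a TPM of 1 or higher. A gene under that level in all libraries of a group thus entered only through the other group, where it is higher. The log2(TPM + 1) values were fitted in limma (version 3.58.1, under R 4.3.3) by lmFit and by eBayes, whose prior variance followed the mean level, Benjamini-Hochberg adjusted over all 13874 genes and called at an adjusted p under 0.05. A pseudocount of 1 understates the change of low genes. On simulated data with 13874 genes, 67, 67 and 66 genes were changed by a log2 of 0.5, 1 and 2. The fit recovered 67.2%, 95.5% and 100% of them, and 5.91% of its calls were false. The changed genes had a mean log2(TPM + 1) above 2 in LPS, and the noise was normal and independent. Far more genes were called in the data, so these rates need not hold there.

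Members and lists were chosen with earlier results of these data known. Named genes are the 10 largest rises and falls whose higher group had a mean TPM of 5 or more, up to 3 members per list, the 8 largest gains and losses of TPM, and a fixed set. Other list members were named after their values were seen. Some genes the rule names are not reported here. No label says that replicate numbers pair samples, so none were paired. Same-numbered replicates did not deviate together (r of -0.0626, -0.0716 and -0.0496), which cannot show that the samples were independent. Alternatives covered the scale, the pseudocount, the filter, the libraries fitted, weights, the trend, the mitochondrial genes, a minimum change and each replicate left out. Promoter windows were matched by symbol.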

Additional observations from a re-analysis of the deposited data

How the results depend on the processing

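Median centring changed the rises from 8620 to 4382 and the falls from 2450 to 4989, and quantile normalization gave 5632 and 3977. A minimum absolute log2 change of 1 left 2187 rises and 1029 falls as deposited and 810 and 1631 after centring, by its own construction. After centring, no filter on low values gave 7187 rises and 7981 falls, with more genes tested. The same genes as deposited gave 8831 and 2689. Centring also shifts genes near 0, and the part this played was not tested. Under centring the change of Apoe reversed to -0.24 and that of Ccl2 to -0.26. A pseudocount of 0.1, a minimum of 5 TPM, all 9 BMDM libraries, no trend, weights per library and leaving out mitochondrially encoded genes kept every count within 1.5 times. Leaving out each replicate gave 7972 to 8341 rises and 2137 to 2461 falls as deposited, and 3928 to 4183 and 4503 to 4716 after centring. With the replicate number as a replicate block, 8429 rose and 2411 fell (4239 and 4841 after centring), although the samples share only a number. Of 2707 combinations of a named gene and a setting, 2694 kept direction and call. The 11 that lost the call, in 7 genes, all came from centring or quantile normalization. Most named genes were chosen as called or for large changes in these same libraries. That they kept their calls was thus largely set by the choice and says little on other genes. Depth is unknown, so what it limits among low genes cannot be given.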
